A study of Mus musculus with 6 samples.

Results

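The 8 genes examined here make, load, take up and break down the neurotransmitter GABA or set the chloride gradient on which its receptors act. They were chosen by symbol: Gad1, Gad2, Slc32a1, Slc6a11, Slc6a13, Abat, Slc12a2 and Slc12a5, which are 8 of 55487 rows in the deposited table, and all 8 passed the filter on low values. Gad1, Gad2, Slc32a1 and Slc12a5 are described as neuronal. Slc6a11, Slc6a13, Abat and Slc12a2 are described as glial or mixed. Abat and Slc12a2 are used by both neurons and glia, and Slc6a13 is known from meningeal fibroblasts. The table holds RNA-seq of reporter-positive cells that were sorted from the mouse subventricular zone, where neurons are born beside the lateral ventricles throughout adult life. There were 3 heterozygous and 3 knockout libraries, named A, B and C in each group, and by its title the study asked how activator E2F factors bear on the quiescent and activated states of adult neural stem cells.

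Both groups carried NestinCreERT2 and the R26;EYFP reporter, on the background written as C57BL/6;Sv/129;FVB/N. Mice were 6 to 10 weeks old at the first of 5 daily gavages of tamoxifen (200 mg/kg), and the cells were collected 10 days after the last. The heterozygous genotype was E2F1(+/-);E2F3(F/+), so these controls were not wild type: they had lost 1 E2f1 allele and carried 1 floxed E2f3 allele. The knockout genotype was E2F1(-/-);E2F3(F/F). E2F1 is written as a null allele and E2F3 as a floxed one, so E2f3 recombination was limited to cells in which the Nestin promoter drove Cre, and to their descendants. The parts of E2f1 and E2f3 in any difference cannot be told apart. Several mice were pooled for each library, to at least 200000 reporter-positive cells, which means that replicate error here is error between pools, not between single mice.

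GABA is made from glutamate by 2 glutamate decarboxylases, GAD67 (Gad1) and GAD65 (Gad2), and is packed into synaptic vesicles by the transporter VGAT (Slc32a1). After release it is cleared by plasma membrane carriers, among them GAT3 (Slc6a11) and GAT2 (Slc6a13), and is degraded by GABA transaminase (Abat). NKCC1 (Slc12a2) brings chloride into cells and KCC2 (Slc12a5) extrudes it, and their balance decides whether GABA depolarizes or inhibits. Neuroblasts of the subventricular zone become mainly GABAergic interneurons of the olfactory bulb, and ambient GABA is known to act on both neuroblasts and the astrocyte-like stem cells.

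The start regions of 5 members are shown because 3 of these genes (Gad1, Gad2 and Slc32a1) were lower together in the knockout cells, whereas the neuronal Slc12a5 and the glial Slc6a11 were not. They are RefSeq windows on GRCm38.p6, all on the plus strand, running from 250 bases before the RefSeq start site to that site, or to the base before the first exon of the gene in GENCODE M21 that begins inside the window. GENCODE M21 also gives Gad1 an exon further upstream, so the Gad1 region lies within the annotated gene, in an intron. Capitals mark a match to an E2F word. For Slc12a5 the region of its upstream start site is shown. That of a further start site, chr2:164967738-164967982, is not shown and held no E2F word. The regions are chr2:70561879-70562041 for Gad1, chr2:22622077-22622204 for Gad2, chr2:158610508-158610757 for Slc32a1, chr2:164960596-164960801 for Slc12a5 and chr6:114130991-114131240 for Slc6a11.
Gad1: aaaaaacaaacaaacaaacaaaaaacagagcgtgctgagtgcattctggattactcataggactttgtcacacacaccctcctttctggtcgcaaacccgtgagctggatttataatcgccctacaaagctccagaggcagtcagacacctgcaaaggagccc
Gad2: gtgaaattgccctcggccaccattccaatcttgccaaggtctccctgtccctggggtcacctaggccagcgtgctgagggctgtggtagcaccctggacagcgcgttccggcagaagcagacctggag
Slc32a1: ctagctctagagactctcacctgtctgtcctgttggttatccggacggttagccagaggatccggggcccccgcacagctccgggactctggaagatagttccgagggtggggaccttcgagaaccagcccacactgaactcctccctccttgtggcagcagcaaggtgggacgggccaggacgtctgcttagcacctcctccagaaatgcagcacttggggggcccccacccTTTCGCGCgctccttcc
Slc12a5: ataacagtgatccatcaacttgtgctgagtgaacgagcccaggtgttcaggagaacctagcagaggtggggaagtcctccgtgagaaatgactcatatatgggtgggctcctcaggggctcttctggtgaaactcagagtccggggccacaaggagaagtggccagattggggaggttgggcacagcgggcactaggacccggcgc
Slc6a11: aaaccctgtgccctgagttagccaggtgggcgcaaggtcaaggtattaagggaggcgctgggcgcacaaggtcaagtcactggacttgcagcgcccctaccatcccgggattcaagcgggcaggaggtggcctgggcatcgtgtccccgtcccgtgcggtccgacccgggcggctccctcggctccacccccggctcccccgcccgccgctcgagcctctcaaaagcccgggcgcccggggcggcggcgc

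The E2F words searched were TTTCCCGC, TTTGGCGC, TTTCGCGC and TTTGCCGC, on both strands, in windows of 300 bases that reach 50 bases past the start site. The RefSeq table held 6 of the 8 members, all but Abat and Slc12a2, with 9 windows because Slc12a5 and Slc6a13 have several start sites. Only the Slc32a1 window among these 9 held an E2F word, TTTCGCGC, whose first base lies 17 bases upstream of the start site. Of all 32851 windows in the table, 2.26% held at least 1 of the 4 words. TAATTA, the core word bound by many homeodomain factors including the Dlx family, was in none of the 9 windows and in 5.29% of all windows. These are matches of letters, with no binding measured.

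The libraries held 19798675 to 25982361 reads assigned to genes. E2f1 stood at 1152, 1388 and 1030 normalized reads in heterozygous A, B and C and at 375, 483 and 516 in knockout A, B and C, and all knockout libraries lay below all heterozygous ones (log2 change -1.38 ± 0.22, limma adjusted p = 0.00559). E2f3 stood at 293, 205 and 253 and at 324, 231 and 245, and its groups overlapped. The table gives 1 value per gene and none per exon, so recombination of E2f3 was not measured. Knockout A correlated less with knockout C (Pearson r = 0.909 across genes, which are not independent) than with knockout B (0.949). Knockout C correlated with heterozygous A, B and C at 0.929, 0.913 and 0.944, each above its r with knockout A. For several members given here knockout A stood apart from knockout B and C. Over all tested genes, 15.8% were called, meaning a limma adjusted p under 0.05 (8.59% lower and 7.23% higher in knockout). The median log2 difference of all tested genes was 0.05.

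Of the 8 members 3 fell and none rose (limma), beside 8.59% of all tested genes called lower. The genes that fell, Gad1, Gad2 and Slc32a1, carry out synthesis and vesicle loading, and the 5 members of uptake, breakdown and chloride transport were not called. The groups did not overlap for these 3 genes and overlapped for the other 5. Without overlap in either direction were 38.7% of all tested genes, and 20.2% lay lower in knockout. Of the 8, Slc6a11 was the 1 gene with a positive difference and an unadjusted p under 0.05 in limma. edgeR called 0 members higher and DESeq2 called 1.

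**Figure D1:**
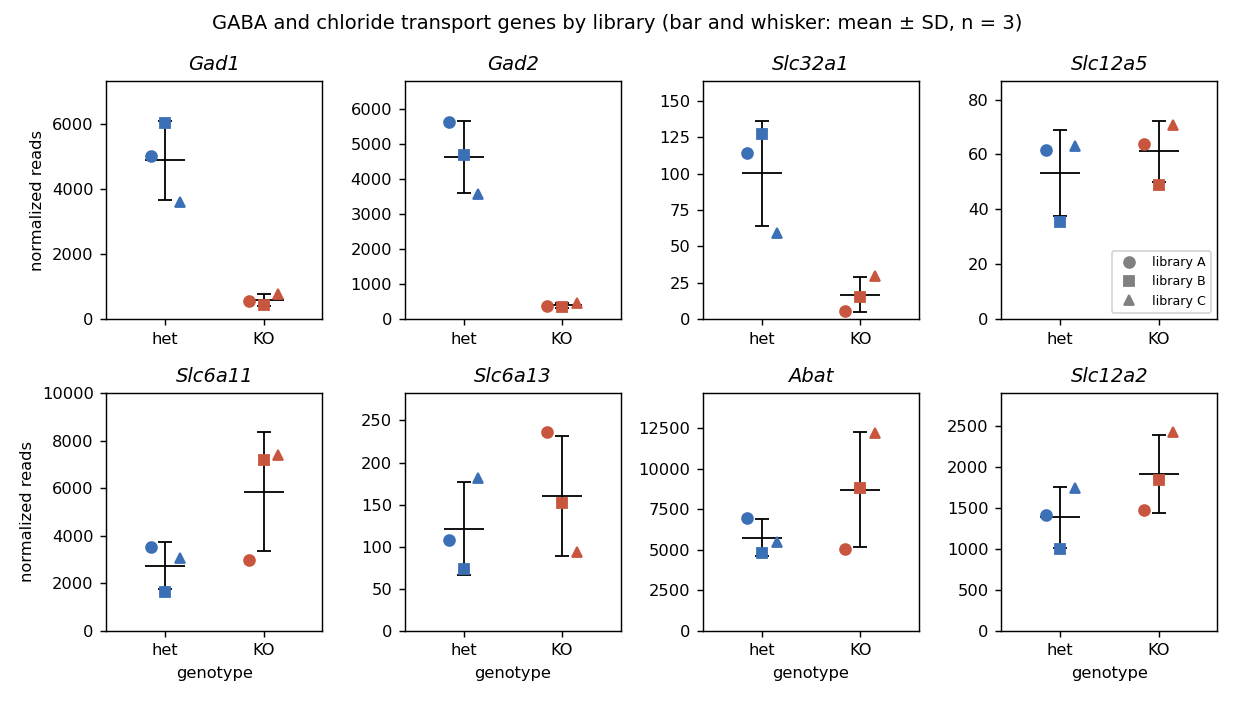
Normalized reads (vertical axis, from 0) of each gene in the 3 heterozygous (het, blue) and 3 knockout (KO, red) libraries; marker shapes give the library letter, the horizontal bar the mean and the whiskers 1 SD. Gad1, Gad2 and Slc32a1 separate the groups, and knockout A lies below the other knockout libraries for Slc6a11, Abat and Slc12a2.

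Gad1 (ENSMUSG00000070880, GRCm38 chromosome 2, 70553072 to 70602014, plus strand) encodes the decarboxylase that supplies most GABA in the cell body. It was at 5022, 6020 and 3589 normalized reads in heterozygous A, B and C and at 545, 438 and 776 in knockout A, B and C. The highest knockout library, C, was still far below the lowest heterozygous library, also C. The group means were 4877 ± 1222 and 586 ± 173 (SD, n = 3 each). Gad1 fell by 3.06 ± 0.27 (SE) on the log2(value + 1) scale, an 8.35-fold decrease (limma adjusted p = 0.000886). In such bulk samples, fewer cells of a type and less RNA per cell cannot be told apart.

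Gad2 (ENSMUSG00000026787, chromosome 2, 22622205 to 22693874, plus strand) encodes the decarboxylase concentrated at nerve terminals. Its values were 5644, 4696 and 3566 normalized reads in heterozygous A, B and C and 366, 349 and 474 in knockout A, B and C. The knockout libraries lay close together, and heterozygous C was again the lowest of its group. The means were 4635 ± 1040 and 396 ± 67.5 (SD, n = 3 each), a log2 change of -3.53 ± 0.23 or 11.6-fold (limma adjusted p = 0.000621). Per kilobase of exon, Gad2 exceeded Gad1 by 1.46, 1.01 and 1.29 times in the heterozygous libraries, and the ratio was 0.874, 1.04 and 0.793 in the knockout libraries. The ranges of this ratio overlapped only between heterozygous B (1.01) and knockout B (1.04). Whether Gad1 and Gad2 fell by different amounts was not tested.

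Slc32a1 (ENSMUSG00000037771, chromosome 2, 158610767 to 158615748, plus strand), the vesicular GABA transporter, stood at 114, 127 and 59.0 normalized reads in heterozygous A, B and C and 5.48, 15.1 and 29.3 in knockout A, B and C. Knockout A rested on 5 reads, and the heterozygous library with the lowest value had 59 reads. Means were 100.1 ± 36.3 and 16.7 ± 12 (SD, n = 3 each), a log2 change of -2.71 ± 0.65 or 6.53-fold (limma adjusted p = 0.0254). The log2 change was -2.58 when heterozygous A was left out, -2.50 when heterozygous B was and -2.78 when knockout B was. In these 3 fits it missed the threshold (limma adjusted p = 0.0945, 0.116 and 0.0778). Over all 16 alternatives the adjusted p ran from 0.000667, given by DESeq2, to 0.116. Without knockout A, the lowest library, the log2 change was -2.12 and Slc32a1 was still called. The adjusted p of Gad1 and Gad2 was at most 0.014 when any 1 library was left out.

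Slc12a5 (ENSMUSG00000017740, chromosome 2, 164960802 to 164999731, plus strand), the chloride extruder of mature neurons, was the neuronal member that was not called. It stood at 61.5, 35.3 and 63.0 normalized reads in heterozygous A, B and C and at 63.6, 49.0 and 70.8 in knockout A, B and C. Library B was lowest in each group, and the ranges overlapped. The log2 difference was 0.23 ± 0.44, with a 95% interval of -0.76 to 1.21 (limma adjusted p = 0.75). That interval shares no value with those of Gad1 (-3.66 to -2.46) and Gad2 (-4.04 to -3.02). At least 36 reads per heterozygous and 55 per knockout library lay behind Slc12a5, and a change inside its interval was not detectable at this depth and spread. Leaving out heterozygous B, the lowest library, gave -0.042.

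**Figure D2:**
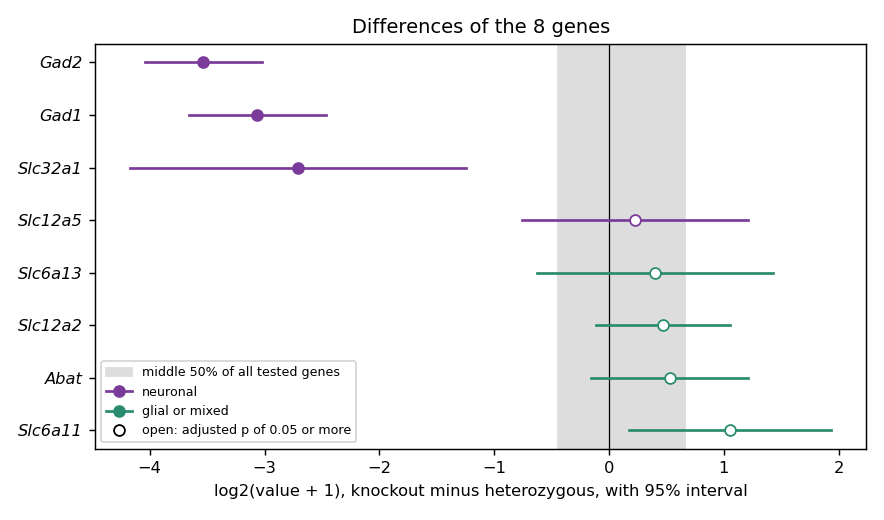
Log2(value + 1) difference between knockout and heterozygous libraries (horizontal axis) for each gene, with 95% intervals from limma; filled points passed an adjusted p of 0.05, purple marks neuronal and green glial or mixed genes, and grey covers the middle 50% of all tested genes (-0.44 to 0.66). Gad2, Gad1 and Slc32a1 lie at -3.53, -3.06 and -2.71, and the other 5 genes lie between 0.23 and 1.06.

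Slc6a11 (ENSMUSG00000030307, chromosome 6, 114131241 to 114249952, plus strand) encodes the GABA carrier of astrocytes. It was at 3536, 1617 and 3056 normalized reads in heterozygous A, B and C and at 2962, 7187 and 7394 in knockout A, B and C. Knockout B and C were above all heterozygous libraries, whereas knockout A lay among them. Means were 2736 ± 999 and 5848 ± 2502 (SD, n = 3 each), and the log2 difference was 1.06 ± 0.39 with a 95% interval of 0.18 to 1.94 (limma adjusted p = 0.0935). Without knockout A the difference was 1.49 (limma adjusted p = 0.017) and the gene was called higher. Without knockout C it was 0.83 and the gene was not called (limma adjusted p = 0.145). The adjusted p ran from 0.017 to 0.31 over the 16 alternatives. Slc6a11 was also called by DESeq2 on the recovered reads (1.10, adjusted p = 0.0198) and in the authors' deposited table (1.10 ± 0.37, adjusted p = 0.0127).

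Abat (ENSMUSG00000057880, chromosome 16, 8513429 to 8621568, plus strand), the mitochondrial enzyme that starts GABA breakdown, is found in both neurons and astrocytes. Its values were 6991, 4774 and 5458 normalized reads in heterozygous A, B and C and 5078, 8826 and 12179 in knockout A, B and C. As for Slc6a11, knockout B and C exceeded the heterozygous libraries and knockout A did not. The log2 difference was 0.53 ± 0.31, with a 95% interval of -0.16 to 1.21 (limma adjusted p = 0.252). Without knockout A it was 0.87 (limma adjusted p = 0.0382) and Abat was called higher. Without knockout C it was 0.24 and Abat was not called (limma adjusted p = 0.552). The adjusted p of Abat ran from 0.0382 to 0.552 over the 16 alternatives.

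Slc12a2 (ENSMUSG00000024597, chromosome 18, 57878678 to 57946821, plus strand), the chloride importer, stood at 1408, 1001 and 1740 normalized reads in heterozygous A, B and C and at 1474, 1838 and 2418 in knockout A, B and C. Knockout B and C lay above all heterozygous libraries and knockout A below heterozygous C. The log2 difference was 0.47 ± 0.26, with a 95% interval of -0.11 to 1.06 (limma adjusted p = 0.231). It was 0.64 without knockout A and 0.29 without knockout C, and Slc12a2 was again not called in either fit. Per kilobase of exon, Slc12a2 exceeded Slc12a5 by 15.6 to 19.4 times in heterozygous and by 15.8 to 25.6 times in knockout libraries. These ranges overlapped, and whether the balance of importer to extruder transcripts differed between the genotypes was not tested.

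Slc6a13 (ENSMUSG00000030108, chromosome 6, 121300227 to 121337733, plus strand), a GABA and taurine carrier known from meningeal fibroblasts, was at 108, 73.5 and 182 normalized reads in heterozygous A, B and C. In knockout A, B and C it was at 236, 151 and 94.1. Knockout A was the highest of the 6 libraries and knockout C lay below heterozygous A, the reverse of the order of Slc6a11 and Abat. The log2 difference was 0.40 ± 0.46, with a 95% interval of -0.62 to 1.43 (limma adjusted p = 0.568). It was 0.078 without knockout A and 0.74 without knockout C.

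Levels were compared between genes per kilobase of exon. In heterozygous cells the highest were Gad2 at 789 ± 177, Abat at 741 ± 147, Gad1 at 638 ± 160 and Slc6a11 at 542 ± 198 normalized reads per kilobase (SD, n = 3), and neighbours in that order did not differ beyond their spread. Slc12a2 followed at 127 ± 33.9. Slc6a13 at 41.7 ± 19.1 and Slc32a1 at 35.8 ± 13.0 were again within their spread, and Slc12a5 was lowest at 7.15 ± 2.09. In knockout cells Slc6a11 at 1158 ± 495 and Abat at 1122 ± 459 led, above Slc12a2 at 175 ± 43.6. Gad1 at 76.8 ± 22.6, Gad2 at 67.4 ± 11.5 and Slc6a13 at 55.2 ± 24.6 came next and lay within their spread. Slc12a5 at 8.21 ± 1.5 and Slc32a1 at 5.95 ± 4.29 were lowest and likewise not separated. The decarboxylases thus moved from the level of the astrocyte carrier to that of Slc6a13, as a description of levels and not a test.

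The mean log2 level of the 4 neuronal members minus that of the 4 glial or mixed members was -1.05, -0.53 and -1.69 in heterozygous A, B and C. In knockout A, B and C it was -3.98, -4.28 and -3.66, and the groups lay apart. The contrast differed by -2.88 between the groups, made up of a mean log2 difference of -2.27 for the 4 neuronal genes and 0.61 for the 4 glial or mixed genes. Gad1, Gad2 and Slc32a1 carried the difference, and Slc12a5 went the other way. No p is given for it, because the members were chosen with results known.

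Beside the GABA synthesis genes, all 10 neuroblast markers fell, among them Dcx and Sox11, against 8.59% of all tested genes called lower (7.23% higher). The median log2 change of these markers was -3.04. Their summed level was 76386 to 118324 normalized reads in heterozygous and 19525 to 26843 in knockout libraries. Knockout C had the highest summed neuroblast level of its group and also the highest Gad1, Gad2 and Slc32a1, and heterozygous C had the lowest of its group for the markers and for these 3 genes. Of 11 markers of mature and striatal neurons, which also express GAD genes, 10 were tested. Drd2, Snap25, Syt1 and Rbfox3 fell (log2 changes of -2.90, -2.56, -1.94 and -1.78), and Ppp1r1b and Rgs9 rose (1.04 and 1.19). Their summed level, which mixes both directions, was 3041 to 3937 in heterozygous and 3279 to 3801 in knockout libraries. Drd1 was at 0 in heterozygous B, knockout B and knockout C, and the 6 called genes were present in every library. The part of either cell type in the change of the GAD genes was not tested.

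Among 10 astrocyte and quiescent stem cell markers 1 rose and none fell in limma, beside 7.23% and 8.59% of all tested genes. All 10 had a positive difference (median log2 difference 0.81), and 6 had an unadjusted limma p under 0.05. None of the 10 was at 0 in any library. Their sum was 254542, 217327 and 337253 in heterozygous A, B and C and 273814, 461330 and 508869 in knockout A, B and C. The sum of knockout A lay within the heterozygous range, but abundant genes such as Slc1a3 dominate it. The mean log2 level of the list was 13.98 in knockout A, above the 13.58, 13.18 and 13.89 of heterozygous A, B and C and below knockout B and C (14.59 and 14.50). Gfap, the marker that rose, stood at 10666 in knockout A and at 5006 to 5543 in heterozygous libraries. Aqp4, Slc1a2, S100b and Ntsr2 in knockout A also lay above all heterozygous libraries. Gja1, Aldoc, Aldh1l1 and Fgfr3 lay within the heterozygous range in knockout A, as did Slc6a11, Abat and Slc12a2. Slc1a3 in knockout A lay below that range. Knockout A also had the highest sums of ependymal markers (65104, against 15712 to 38505 in the other knockout and 10962 to 12126 in heterozygous libraries) and of endothelial markers (18647, against 2584 to 7466 in the other 5). Of the ependymal markers 6 of 7 rose, and of the endothelial markers 0 of 7 passed limma (2 had an unadjusted p under 0.05). The part of these cells in the results was not tested.

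Markers of other cell types that may carry Slc6a13 or Slc12a2 were also measured. Of 8 vascular and leptomeningeal fibroblast markers 7 were tested and 1 rose, beside 7.23% of all tested genes called higher. Their sum was 1416 to 4500 in heterozygous and 2820 to 4087 in knockout libraries. The marker that rose was Col1a1, from 18.6 to 44.4 normalized reads in heterozygous to 123 to 185 in knockout libraries. Lum and Slc22a6 were at 0 in all heterozygous libraries and in knockout C, and the other 6 were present in every library. Of 8 mural markers 2 rose, with sums of 8824 to 18039 and 12583 to 33555. Choroid plexus markers, with 0 of 7 called and 1 at an unadjusted p under 0.05, summed to 47654 in heterozygous A, of which Ttr was 44005, and to 765 to 3678 in the other 5 libraries. Kl and Kcne2 were at 0 in heterozygous B and C, where the other 5 markers were present. Oligodendrocyte lineage markers (0 of 8 called, 4 with an unadjusted p under 0.05) summed to 47778 to 68384 and 74466 to 92824, and microglia markers (0 of 6, none with an unadjusted p under 0.05) to 1037 to 4225 and 1242 to 6998. The part of these cells in the values of Slc6a13 and Slc12a2 was not tested.

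**Figure D3:**
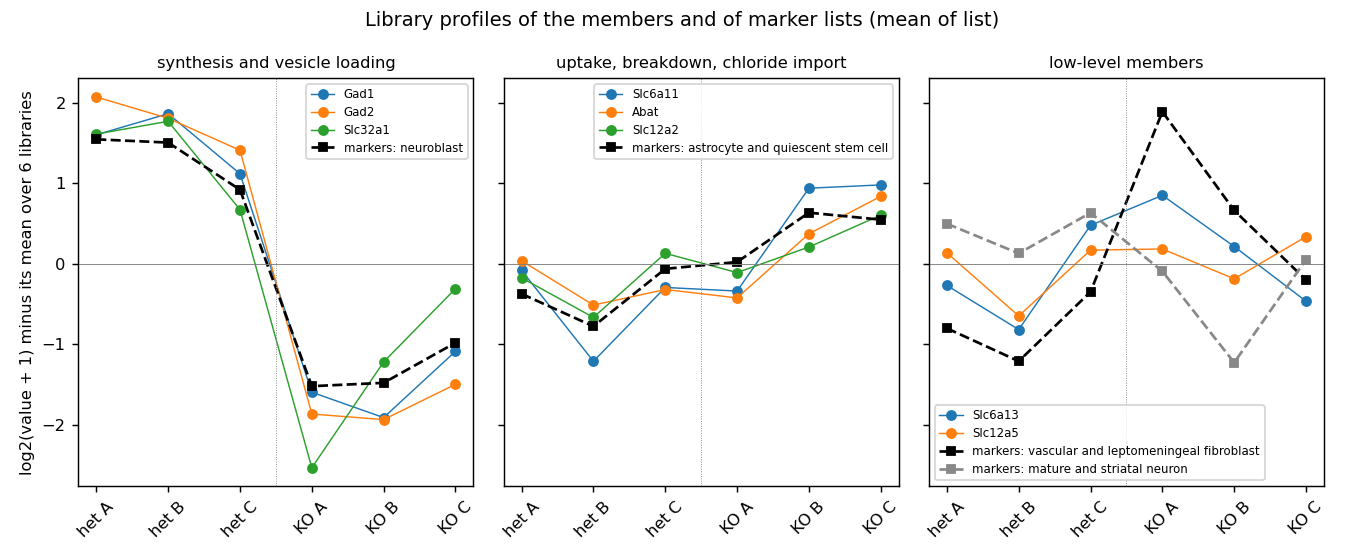
Log2(value + 1) of each member minus its mean over the 6 libraries (vertical axis), by library (horizontal axis), with the mean of marker lists as dashed lines; lines only join the points of one gene or list. Gad1, Gad2 and Slc32a1 are high in all heterozygous libraries, as are neuroblast markers, while Slc6a11, Abat and Slc12a2 are highest in knockout B and C, and Slc6a13 in knockout A.

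Across the 6 libraries Gad1 and Gad2 had a Pearson r of 0.992 in log2(value + 1), and Slc32a1 correlated with them at 0.925 and 0.916. Slc6a11 correlated with Abat at 0.918 and with Slc12a2 at 0.898, but with Slc6a13 at 0.126. These are descriptions over 6 libraries that share the genotype split. Among 14134 genes with a mean of at least 50, those most like Gad1 were Pclaf, Tdg and Celf4 (r of 0.999 each), and those most like Gad2 were Sox11, Syt4 and Sp8 (0.999, 0.999 and 0.998). For Slc32a1 they were Cnrip1, Usp33 and Rrm1 (0.999, 0.999 and 0.998), and for Slc12a5 Tsix, Erich2os and Mdfic (0.984, 0.980 and 0.980). For Slc6a11 they were Tpp1, Nf1 and Slc41a1 (0.997, 0.996 and 0.996), for Abat Snx19, Fads1 and Pomt2 (0.997, 0.994 and 0.994), for Slc12a2 Pde4b and C4b (0.997 and 0.994), and for Slc6a13 Picalm, Gm9968 and Gm50431 (0.992, 0.983 and 0.982). The 3 genes nearest to Slc32a1 had smaller log2 changes (-0.76, -0.99 and -1.44) than its own, since r ignores the size of a change.

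The other genes of GABA metabolism and precursor supply leaned upward. Of 12 such genes 4 rose, beside 7.23% of all tested genes, and the median log2 difference was 0.72. None fell in limma, 2 had a negative difference with an unadjusted p under 0.05, and DESeq2 called 1 lower. Slc38a3, a glutamine transporter of astrocytes, stood at 6530, 3980 and 6295 normalized reads in heterozygous A, B and C and at 10861, 13666 and 12980 in knockout A, B and C. The groups did not overlap, and the change was 1.19 ± 0.23 in log2 (limma adjusted p = 0.0119). Pdxk, the kinase that makes the pyridoxal phosphate cofactor of the GAD enzymes, rose 2.16-fold from 316 ± 63.7 to 675 ± 38.4. Maob and Aldh9a1, which act in the route from putrescine to GABA, rose 1.80-fold and 1.68-fold (limma adjusted p = 0.0245 and 0.0282). Maob went from 3016 ± 149 to 5511 ± 1201 and Aldh9a1 from 2250 ± 157 to 3802 ± 644 (SD, n = 3 each). Of the 12 genes, 2 rose without heterozygous A, 1 without heterozygous B and 0 without knockout B. Aldh5a1, which follows Abat in GABA breakdown, had a log2 difference of 0.70 (adjusted p = 0.101), and Glul, which makes glutamine from glutamate, had 0.25 (adjusted p = 0.418).

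Of 4 other carriers of the Slc6 family 3 were tested and 1 rose, beside 7.23% of all tested genes. It was the taurine carrier Slc6a6, from 1394 ± 262 to 2991 ± 823 (2.11-fold, limma adjusted p = 0.0205). It was not called without heterozygous B or knockout B (limma adjusted p = 0.0946 and 0.0857). Its adjusted p ran from 0.000929 to 0.0946 over the 16 alternatives, edgeR and DESeq2 among them. Slc6a12, the betaine and GABA carrier, fell below the filter, with 0 to 14.3 normalized reads.

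Of 20 other cation-chloride cotransporters, regulating kinases and chloride carriers 18 were tested. None passed limma, 3 had an unadjusted p under 0.05, and edgeR with TMM scaling and DESeq2 called 2 higher (Slc12a4 and Slc4a8). The median log2 difference was 0.07, close to the 0.05 of all tested genes. The member with the smallest p was Slc4a8, a sodium-driven chloride and bicarbonate exchanger, from 450 ± 89.6 to 785 ± 160 (log2 difference 0.80 ± 0.25, limma adjusted p = 0.054). Slc12a1 was at 0 in all 6 libraries and Slc12a3 reached at most 11.6 normalized reads.

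Transcription factors of GABAergic identity fell with the GAD genes: 9 of 11 fell and 0 rose, beside 8.59% and 7.23% of all tested genes. The list's median was -2.87. Sp8 fell from 1363 ± 374 to 119 ± 25.5, Dlx5 from 2929 ± 1205 to 225 ± 96.2 and Dlx6 from 486 ± 97.3 to 47.0 ± 9.46 (log2 changes of -3.49, -3.70 and -3.34, limma adjusted p of 0.000886 to 0.000969). The changes of Gad1 and Gad2 lay within the range of the 9 factors that fell (-3.70 to -1.45). Gsx2, which acts earlier in the lineage, had a log2 difference of 0.32 (limma adjusted p = 0.502). This list overlaps in biology with the neuroblast markers and adds no independent evidence.

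**Figure D4:**
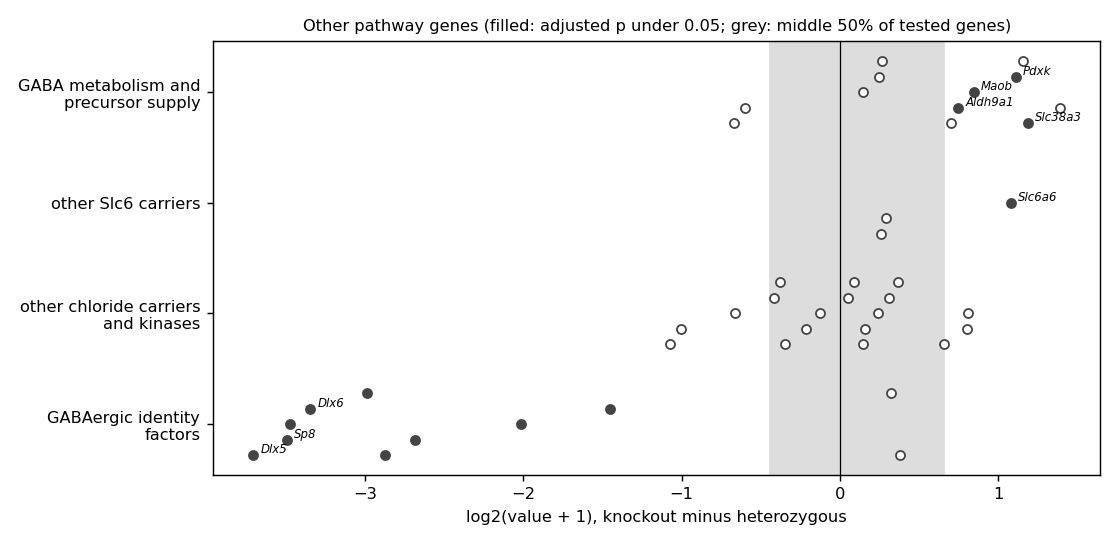
Log2(value + 1) difference between knockout and heterozygous libraries (horizontal axis) for the tested genes of 4 pathway lists (rows, with a vertical offset only for legibility); filled points passed a limma adjusted p of 0.05, those described in the text are named, and grey covers the middle 50% of all tested genes. The GABAergic identity factors that passed lie between -3.70 and -1.45, and the metabolic genes that passed between 0.75 and 1.19.

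All 4 neuronal members lie on chromosome 2, which also carries E2f1, so their position was compared with that of the null allele. Start sites were 4.04 Mb from that of E2f1 for Slc32a1, 10.4 Mb for Slc12a5, 84.0 Mb for Gad1 and 131.9 Mb for Gad2. Within 10 Mb of E2f1, 24 of 216 tested genes fell and 14 rose (17.6% called), and on the rest of chromosome 2 113 of 1165 fell and 85 rose (17.0% called). The median log2 differences were -0.02 and 0.03, and the shares called lower were 11.1% and 9.7%. Within 5 Mb of E2f1, where Slc32a1 lies, 19 of 157 tested genes fell (12.1%), against 9.64% on the rest of the chromosome. Whether these shares differ was not tested. Effects of the null allele and of sequence linked to it cannot be told apart in this design.

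**Figure D5:**
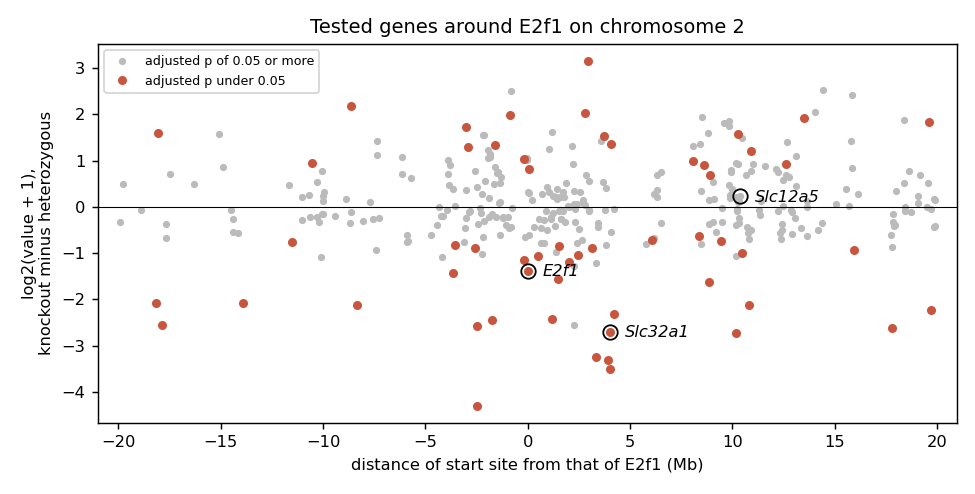
Log2(value + 1) difference between knockout and heterozygous libraries (vertical axis) against the distance of each tested gene's start site from that of E2f1 in Mb (horizontal axis); red points passed a limma adjusted p of 0.05. Slc32a1 at 4.04 Mb was among the genes that fell, and Slc12a5 at 10.4 Mb was not called.

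Overlapping annotation touched 5 of the members. SMART-Seq libraries made with Nextera XT do not mark strand, so antisense reads cannot be told apart where exons overlap. The antisense gene Gad1os overlaps the Gad1 locus but no Gad1 exon, and it stood at 22.2 to 40.2 normalized reads with a log2 difference of 0.00 (adjusted p = 0.996). The antisense gene Gm14205, which shares exon sequence with Slc32a1, was listed at 0 in all 6 libraries. Without strand, that 0 does not show that antisense reads were absent from the shared sequence. The other overlapping entries, small RNAs or a pseudogene at Gad2, Slc6a11 and Slc6a13, reached at most 7.06 normalized reads.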

How the data were processed

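Per the submitters' processing notes, HISAT2, featureCounts of Subread and DESeq2 were used on GRCm38. Versions and the annotation are not given in the sources used here, so values per kilobase (exon lengths from GENCODE M21) are approximate. The authors deposited a normalized signal per library and its mean, which are read counts divided by 1 size factor per library: values were whole multiples of 1 step (100% within 0.001 reads). Per the file headers, the deposited comparison gives a log2 fold change with its standard error, a statistic and a weight (scores), and p-values with and without adjustment.

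limma 3.58.1 with a mean-variance trend (R 4.3.3) was run on log2(value + 1), a scale on which the pseudocount pulls differences of low genes toward 0 (Slc32a1 was at -2.76, -2.71 and -2.37 with pseudocounts of 0.5, 1 and 5). Rows averaging 10 or more were tested (18227), two-sided, by genotype alone, with Benjamini-Hochberg adjustment over all of them. edgeR 4.0.16 and DESeq2 1.42.0 on recovered reads, other pseudocounts, filters and thresholds, and leaving out each library were alternatives. The fits were tested on simulated data. The design text calls the replicates biological, and no replicate pair agreed within counting error. Deviations of same-letter libraries from their group means correlated at -0.07, 0.02 and -0.10, so the letters were not taken as pairs.

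Promoter windows came from RefSeq (GRCm38.p6). Named were the members, E2f1, E2f3, up to 4 called genes per pathway list or that with the smallest p, and the 3 genes most correlated with each member, except some genes that are not reported here. Aldh5a1, Glul, Slc12a4, Slc6a12, Slc12a1, Slc12a3, Gsx2 and single markers were added after their values were seen. Members and lists were chosen with earlier results of these data known.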

Additional observations from a re-analysis of the deposited data

How the results depend on the processing

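The decreases of Gad1 and Gad2 were called under all 16 alternatives, with log2 changes of -3.28 to -2.87 and -3.71 to -3.38. Slc32a1 kept its direction under all 16 (-3.23 to -2.12) but missed the threshold in 3 leave-one-out fits and at an adjusted p of 0.01. Members called lower were 2 to 3 when any 1 library was left out, and members called higher 0 to 2, with 1 under DESeq2 (Slc6a11). Slc12a5 ranged from -0.042 (without heterozygous B) to 0.37 and E2f3 from -0.058 (without knockout A) to 0.21, with -0.046 without heterozygous B, and neither was called in any of these fits. The contrast of neuronal minus glial or mixed members ranged from -3.18 to -2.60 without any 1 library. The count of all called genes, 2883, was 2921 with edgeR (TMM) on recovered reads, 4380 under DESeq2, 618 at an adjusted p of 0.01 and 635 to 4019 when any 1 library was left out. It was 906 without heterozygous A, 635 without heterozygous B and 697 without knockout B. It was 2336 without heterozygous C, 2230 without knockout A and 4019 without knockout C. In the list of GABA metabolism 1 gene fell under DESeq2 and 1 with a mean of at least 50. At an adjusted p of 0.01 none of that list or of the other Slc6 carriers rose, that is 0 in each. Without any 1 library 0 to 5 and 0 to 1 of these lists rose. In the chloride list 2 rose with edgeR under TMM or upper-quartile scaling, under DESeq2 and with a mean of at least 50, and 0 to 1 without any 1 library. With the letters as a replicate block 2310 genes were called, with the same 3 members lower and none higher. Aldh9a1 was then no longer called (limma adjusted p = 0.059). Its adjusted p ran from 0.00726 to 0.118 over its alternatives, edgeR and DESeq2 among them. Counts for the GABAergic factors (9 lower) were the same without any 1 library. The causes were not tested. Of the members, Slc32a1 rested on as few as 5 reads in a library and Slc12a5 on as few as 36.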
